A study of Mus musculus with 4 samples.

Results

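Granins and their companion proteins of the dense-core secretory granule were followed here as 10 genes: Chga, Chgb, Scg2, Scg3, Vgf, Ptprn, Ptprn2, Resp18, Nucb2 and Scgn. They were taken by name from a table of read counts with 23420 rows, 10 of 10 were found, and 10 passed the filter on low counts. The RNA came from mouse pancreatic β-cells purified by FACS, in 4 libraries prepared with the SMART-Seq v4 kit for small amounts of RNA. One genotype was Bmal1KO with DTA, the A chain of diphtheria toxin, and the other Bmal1+/- (heterozygous, Het) with DTA, and each had 2 libraries. Both groups had received doxycycline for 10 days, which per the labels ablated most β-cells, so the control libraries are also survivors of an ablation and no library of an unablated islet enters the comparison. The promoter that drives DTA, the marker used for sorting, the age of the mice, the tissue in which Bmal1 was deleted and the number of animals behind a library are not stated in the labels, and p-values reflect nothing but how far these libraries spread, part of which may be technical. Pairs of values are given in the order of replicates 1 and 2.

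Endocrine cells store peptide hormones in dense-core granules, which bud from the trans-Golgi network and wait near the plasma membrane for a calcium signal. Granins are acidic proteins that condense in the Golgi together with the hormones, help the granule form, and are cut at pairs of basic residues into peptides that are released with insulin. PTPRN (also called IA-2 or ICA512) and PTPRN2 (phogrin, IA-2β) are phosphatase-like proteins of the granule membrane and known targets of autoantibodies in type 1 diabetes. BMAL1, the product of the gene Arntl, pairs with CLOCK as a transcription factor of the circadian clock.

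The libraries held 31056116 to 38020488 counts, and Ins2 alone took 15.5% to 19.5% of them. Arntl, the targeted gene, had 75.8 and 65.6 CPM under the KO label and 23.0 and 14.98 CPM under the Het label (log2 fold change 1.89, SE 0.24, edgeR adjusted p = 0.0175), so its RNA was higher, not lower, under the KO label. Without Het replicate 2 the value was 1.61 (adjusted p = 0.0724). Whole-gene counts do not show whether an exon is missing, so groups are called by their labels and every direction is that of the libraries labelled KO. All 10 β-cell markers listed to describe the cells were measured. Their levels summed to 274000 and 235200 CPM under the KO label and 217600 and 276600 CPM under the Het label. Ins2 made up most of each sum, at 194482 and 168789 CPM against 151669 and 187237 CPM. Over the 10 markers, 8 log2 fold changes were negative and 2 positive, with a median of -0.45. Of these 10 markers, Ucn3, G6pc2 and Slc30a8 fell in edgeR's test, 0 rose and 7 did not pass. Xist was at 8.67 CPM in KO replicate 1 against 38.8, 72.3 and 67.5 CPM in KO replicate 2 and Het replicates 1 and 2, and Ddx3y, of the Y chromosome, at 89.1 CPM against 23.8, 20.5 and 12.1 CPM. KO replicate 1 therefore stood furthest apart in sex-linked RNA, and each library held RNA of both kinds. Both libraries labelled KO also had less Xist and more Ddx3y than both labelled Het, while the other Y-linked genes measured overlapped between labels. A difference in sex mix and a difference by label cannot be fully told apart here.

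Promoters of the 4 classical granin genes are printed first. They were chosen because the genes lay in 1 direction in the counts and hold the same motif core shortly before their RefSeq starts. Of these, only Chga passed edgeR's test. The sequences are from RefSeq (GRCm38.p6, the assembly of mm10), which held 10 windows for 9 of the 10 genes. Each runs from 250 bases before to 50 bases after a start annotated by RefSeq. For Chgb, Scg2 and Ptprn that start lies inside the gene bounds given below, which are those of GENCODE. Vgf, which also passed the test, had no window. Capitals mark TGACG or its reverse complement CGTCA, the core of the cyclic AMP response element (CRE) bound by CREB, and the full CRE TGACGTCA where it is present. The windows are chr12:102554691-102554990 (plus strand) for Chga, chr2:132781392-132781691 (plus strand) for Chgb, chr1:79439977-79440276 (minus strand) for Scg2 and chr9:75684007-75684306 (minus strand) for Scg3, and each is printed 5′ to 3′ on the strand of its gene.
Chga: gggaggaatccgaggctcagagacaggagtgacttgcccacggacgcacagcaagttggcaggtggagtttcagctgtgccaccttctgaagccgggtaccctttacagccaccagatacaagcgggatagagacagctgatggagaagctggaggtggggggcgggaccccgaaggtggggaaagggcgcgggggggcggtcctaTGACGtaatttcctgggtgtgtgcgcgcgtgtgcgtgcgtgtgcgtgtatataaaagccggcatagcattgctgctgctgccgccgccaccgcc
Chgb: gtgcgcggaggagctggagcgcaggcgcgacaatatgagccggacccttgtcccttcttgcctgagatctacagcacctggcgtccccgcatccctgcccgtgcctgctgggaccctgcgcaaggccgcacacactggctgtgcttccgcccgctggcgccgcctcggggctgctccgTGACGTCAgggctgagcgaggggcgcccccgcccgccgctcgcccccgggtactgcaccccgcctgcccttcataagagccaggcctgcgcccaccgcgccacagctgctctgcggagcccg
Scg2: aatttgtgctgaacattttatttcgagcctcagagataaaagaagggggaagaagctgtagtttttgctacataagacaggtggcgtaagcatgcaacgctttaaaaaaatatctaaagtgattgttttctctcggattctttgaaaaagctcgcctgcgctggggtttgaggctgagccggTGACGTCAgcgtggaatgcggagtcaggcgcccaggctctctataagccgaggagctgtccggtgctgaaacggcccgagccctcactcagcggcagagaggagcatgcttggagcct
Scg3: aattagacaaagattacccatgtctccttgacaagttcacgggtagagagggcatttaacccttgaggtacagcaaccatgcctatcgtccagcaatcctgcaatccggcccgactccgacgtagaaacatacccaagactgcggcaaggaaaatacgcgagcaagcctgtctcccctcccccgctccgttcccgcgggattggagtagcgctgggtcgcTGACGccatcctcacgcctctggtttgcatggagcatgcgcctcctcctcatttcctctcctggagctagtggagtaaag

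Full CREs stood in 2 of the 10 windows, those of Chgb and Scg2, with the first base 72 and 68 bases upstream of the RefSeq start. Both lie inside the GENCODE bounds of their genes. Chga carried the core alone, 44 bases upstream, and Scg3 30 bases upstream. A Ptprn window held the core at 117 bases and its reverse complement at 80 bases upstream of its RefSeq start. These too lie inside the GENCODE bounds of the gene. The other Ptprn window and those of Nucb2 (also lower under the KO label), Ptprn2, Resp18 and Scgn held neither. In all, 5 of the 10 windows held the core on either strand, which overlaps the full CRE, beside 29.5% of the 13754 windows of tested genes. The full CRE stood in 2.97% of those windows. The E-box CACGTG, to which BMAL1 and CLOCK bind, stood in 0 of the 10 windows and in 9.52% of the windows of tested genes, and the D-box TTATGTAA (either strand) in 0 of the 10 and in 0.567%. These are matches of letters in a short window only, and GC content ran from 50.7% in Scg2 to 72.7% in Chgb, with a median of 52.7% over all promoters.

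RNA of Vgf and Chga fell in the libraries labelled KO, and Chgb, Scg2 and Scg3 lay lower there without passing the test. With edgeR (quasi-likelihood, Benjamini-Hochberg adjustment over all 14649 genes tested), 2 of the 10 genes fell (Vgf and Chga), 8 did not pass and 0 rose, where 1.34% of all genes tested were called lower, 1.20% higher and 2.54% either way. At an unadjusted p under 0.05, 7 were lower (7.75% of all genes tested) and 1 was higher (9.12%). DESeq2 called 6 lower (3.82% of all genes) and 1 higher (4.23%), and limma-voom 2 lower (1.49%) and 0 higher (1.12%). The KO-labelled libraries were each lower than the Het-labelled ones for 7 of the 10 genes (23.8% of all genes tested) and each higher for 2 (25.3%), and the groups overlapped for 1, Resp18. The median log2 fold change was -0.535 over the 10 genes and 0.024 over all genes tested. In bulk RNA, fewer cells of a type and less RNA per cell cannot be told apart.

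Without Het replicate 2, 0 of the 10 genes passed, and over all genes 8 were lower (0.0518%) and 17 higher (0.110%). Without Het replicate 1, 2 of the 10 were lower (0.612% of all genes) and 0 higher (0.840%). Without KO replicate 1, 6 were lower (1.75%) and 0 higher (1.94%), and without KO replicate 2, 3 were lower (2.77%) and 1 was higher (2.66%). The signs of the 10 log2 fold changes were the same in each of these fits. Each fit leaves 1 library under a label, so spread within a label comes from the other label alone. Passing or failing in these fits therefore does not measure spread under both labels.

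**Figure D1:**
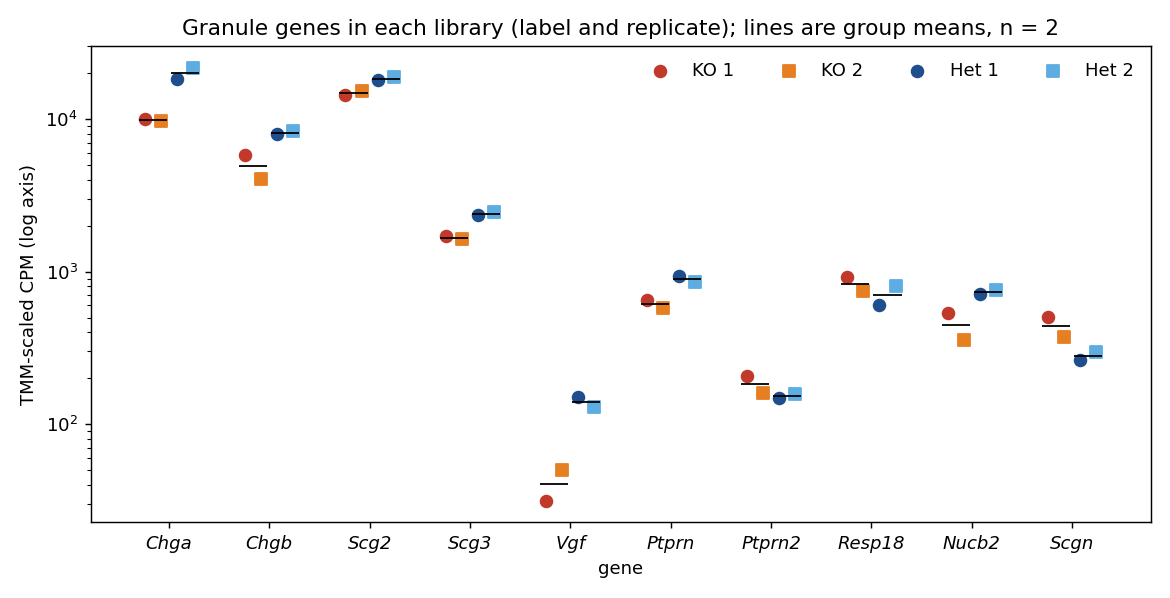
TMM-scaled CPM on a log axis for each of the 10 genes in the 4 libraries, circles for replicate 1 and squares for replicate 2 of each label, with lines at the group means (n = 2). Chga lies at 9763 and 9944 CPM under the KO label and at 18153 and 21729 CPM under the Het label, and the groups overlap for Resp18.

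Chga encodes chromogranin A, the founding granin and the precursor of the β-cell peptides pancreastatin and vasostatin (chromosome 12, 102554969 to 102565028, plus strand, GRCm38). It was at 9944 and 9763 CPM in KO replicates 1 and 2 and at 18153 and 21729 CPM in Het replicates 1 and 2. Both libraries labelled KO were thus within 1.02-fold of each other, and the lower Het library was 1.83-fold above the higher of them. The fitted log2 change was -1.02 (SE 0.13, edgeR adjusted p = 0.0175), a 2.02-fold lower level in 2 of 2 libraries. By limma-trend on the deposited scaled values the adjusted p was 0.126, and without Het replicate 2 it was 0.0688 at a log2 fold change of -0.89.

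Vgf, whose product is a granin-like precursor of peptides such as TLQP-21 and is induced by neurotrophins, lies on chromosome 5 (137026392 to 137033351, plus strand). It had the largest fold change and the lowest mean CPM of the 10 genes. Per kilobase of length, Ptprn2 was lower under the Het label. Vgf levels were 31.6 and 49.9 CPM under the KO label and 150 and 129 CPM under the Het label. Even the nearest libraries differed by 2.58-fold, more than the 1.58-fold between the libraries labelled KO. The log2 fold change was -1.77 (SE 0.24, edgeR adjusted p = 0.0175), or 3.42-fold lower. Without Het replicate 2 it was -1.89 and no longer passed, and without KO replicate 1 it was -1.51.

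Chgb, which encodes chromogranin B, a partner of chromogranin A in granule formation (chromosome 2, 132781278 to 132795079, plus strand), varied between the libraries labelled KO. It was at 5843 and 4039 CPM there, a 1.45-fold spread, and at 7932 and 8361 CPM under the Het label. The groups did not overlap, but the change did not pass (log2 fold change -0.72, SE 0.18, edgeR adjusted p = 0.106). The log2 fold change was -1.04 without KO replicate 1 and -0.48 without KO replicate 2.

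Scg2, the gene of secretogranin II and its peptide secretoneurin (chromosome 1, 79434669 to 79440120, minus strand), had the smallest fold change of the granins. Levels were 14360 and 15198 CPM under the KO label and 18106 and 18738 CPM under the Het label. The groups did not overlap, with a gap of 1.19-fold, and the log2 fold change of -0.32 (SE 0.11) did not pass (edgeR adjusted p = 0.223).

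Scg3 encodes secretogranin III, which binds cholesterol in the granule membrane and holds chromogranin A there (chromosome 9, 75643189 to 75684056, minus strand). Its replicates were close, at 1707 and 1637 CPM under the KO label and 2348 and 2442 CPM under the Het label. The log2 fold change of -0.52 (SE 0.12) did not pass (edgeR adjusted p = 0.0895), although the groups lay 1.38-fold apart at their nearest. The value was -0.57 without KO replicate 1 and -0.49 without KO replicate 2.

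**Figure D2:**
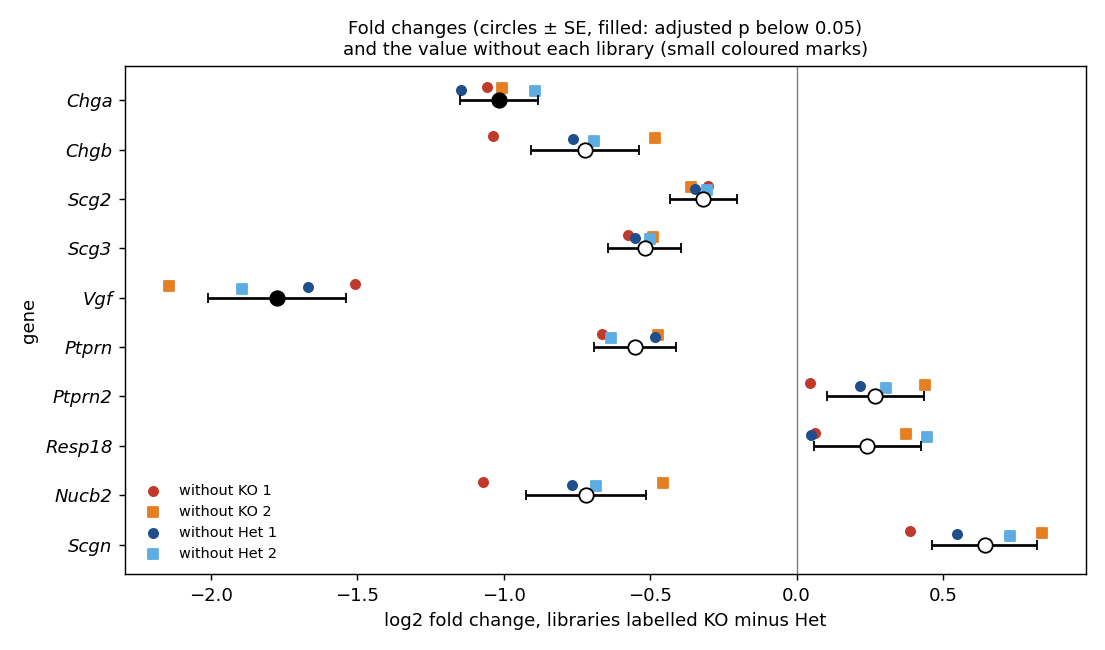
Log2 fold change of the libraries labelled KO against those labelled Het for the 10 genes, circles with ± SE from the fit on all 4 libraries (filled where the adjusted p is below 0.05) and small marks for the fit without 1 library. Vgf and Chga are filled, and no small mark lies on the other side of 0 from its circle.

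The phosphatase-like pair of the granule membrane lay in opposite directions, neither past the test. Ptprn (chromosome 1, 75247027 to 75264502, minus strand) was at 647 and 576 CPM under the KO label and at 941 and 851 CPM under the Het label. The groups did not overlap, and the change did not pass (log2 fold change -0.55, SE 0.14, edgeR adjusted p = 0.102). It was -0.66 without KO replicate 1 and -0.47 without KO replicate 2. Ptprn2, spread over 791 kb (chromosome 12, 116485720 to 117276849, plus strand), was at 207 and 160.3 CPM against 147 and 157 CPM (0.27, SE 0.17, edgeR adjusted p = 0.479). Here the nearest libraries, KO replicate 2 and Het replicate 2, were almost level, and without KO replicate 1 the value was 0.048. Within a library, where scaling plays no part, counts of Ptprn were 3.13 and 3.59 times those of Ptprn2 under the KO label and 6.39 and 5.41 times under the Het label. On the log2 scale this ratio differed by -0.81 between labels, with SDs of 0.141 and 0.168 (n = 2 each).

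Resp18, a small granule protein gene related in sequence to the luminal part of PTPRN, lies next to Ptprn on chromosome 1 (75272199 to 75278415, minus strand), 7696 bases away. The neighbours differed in direction. Resp18 was at 915 and 749.7 CPM under the KO label and at 607 and 801 CPM under the Het label, so KO replicate 2 lay below Het replicate 2 (log2 fold change 0.24, SE 0.18, edgeR adjusted p = 0.574). A noncoding antisense gene covers 189 exonic bases of Ptprn (4.45%) and another 40 of Resp18 (3.88%). Reads of overlapping genes cannot be told apart, because the library kit does not mark strand. No exon of the other 8 genes overlapped another annotated gene.

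Nucb2 and Scgn encode calcium-binding proteins and also lay in opposite directions without passing. Nucb2 gives nucleobindin 2, the precursor of the peptide nesfatin-1 (chromosome 7, 116504369 to 116540584, plus strand). It was at 535 and 354 CPM under the KO label and at 709.7 and 754 CPM under the Het label, without overlap. The change did not pass (log2 fold change -0.72, SE 0.20, edgeR adjusted p = 0.137). It was -1.07 without KO replicate 1 and -0.46 without KO replicate 2.

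Scgn gives secretagogin, a cytosolic calcium sensor of endocrine cells that binds proteins of the release machinery (chromosome 13, 23953456 to 23991214, minus strand). Its 502 and 373 CPM under the KO label lay above the 262 and 299 CPM under the Het label. The log2 fold change of 0.64 (SE 0.18) did not pass (edgeR adjusted p = 0.131), and it was 0.84 without KO replicate 2 and 0.39 without KO replicate 1. DESeq2 gave an adjusted p of 0.0148. It had the largest positive log2 fold change of the 10 genes.

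Summed over the 10 genes, granule RNA took 3.47% and 3.39% of all counts under the KO label and 5.03% and 5.16% under the Het label. Within that sum the mix differed as well. Chga made up 28.7% and 29.7% of it under the KO label and 36.8% and 40.1% under the Het label, while Scg2 made up 41.4% and 46.2% against 36.7% and 34.5%. Scgn made up 1.45% and 1.14% against 0.531% and 0.550%. Scg3 held its share, at 4.92%, 4.98%, 4.76% and 4.50% in KO replicates 1 and 2 and Het replicates 1 and 2.

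**Figure D3:**
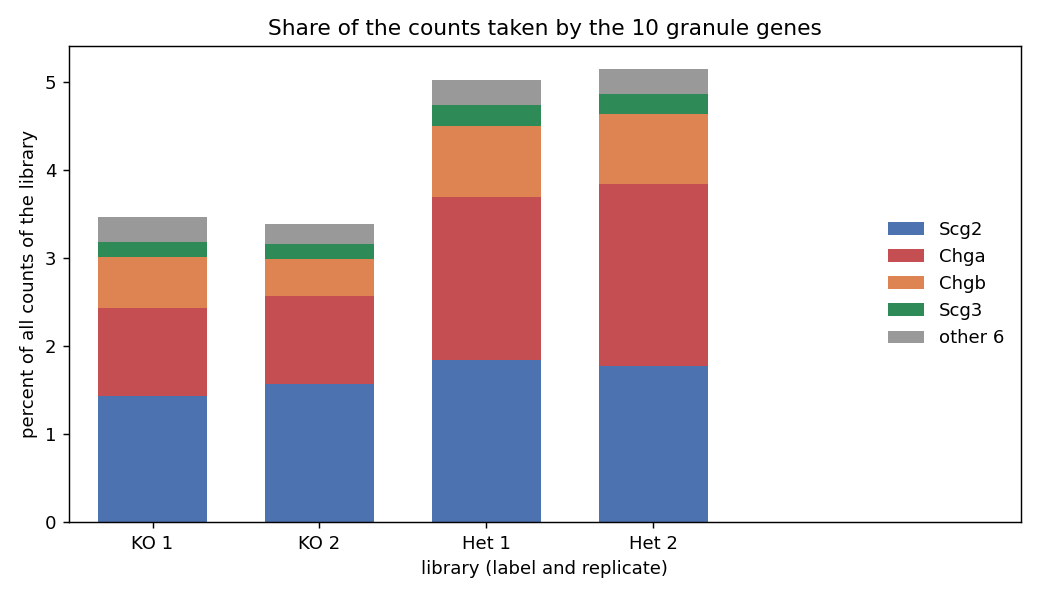
Stacked bars of the percent of all counts of each library taken by Scg2, Chga, Chgb, Scg3 and the other 6 genes together. The bars reach 3.47% and 3.39% under the KO label and 5.03% and 5.16% under the Het label, and the Chga segment differs most.

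Ratios of counts within a library need no scaling and were taken for 5 pairs of genes. Scg2 counts were 1.44 and 1.56 times those of Chga under the KO label and 0.997 and 0.862 times under the Het label, a log2 difference of 0.69 (SDs 0.0765 and 0.148). Counts of Chga per count of Ins2, the main insulin gene, were 0.0511 and 0.0578 against 0.120 and 0.116, a log2 difference of -1.12 (SDs 0.126 and 0.0315).

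Vgf counts per Chga count were 0.00317 and 0.00511 against 0.00825 and 0.00593, a log2 difference of -0.80, which ran from -0.45 without KO replicate 1 to -1.14 without KO replicate 2. Chga to Chgb overlapped between labels, at 1.70 and 2.42 against 2.29 and 2.60. With 2 libraries against 2 the exact permutation test (2-sided) cannot give a p below 0.333. It gave 0.333 for the 4 ratios without overlap and 0.667 for Chga to Chgb, or 0.416 and 0.667 after Benjamini-Hochberg adjustment over the 5 ratios.

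**Figure D4:**
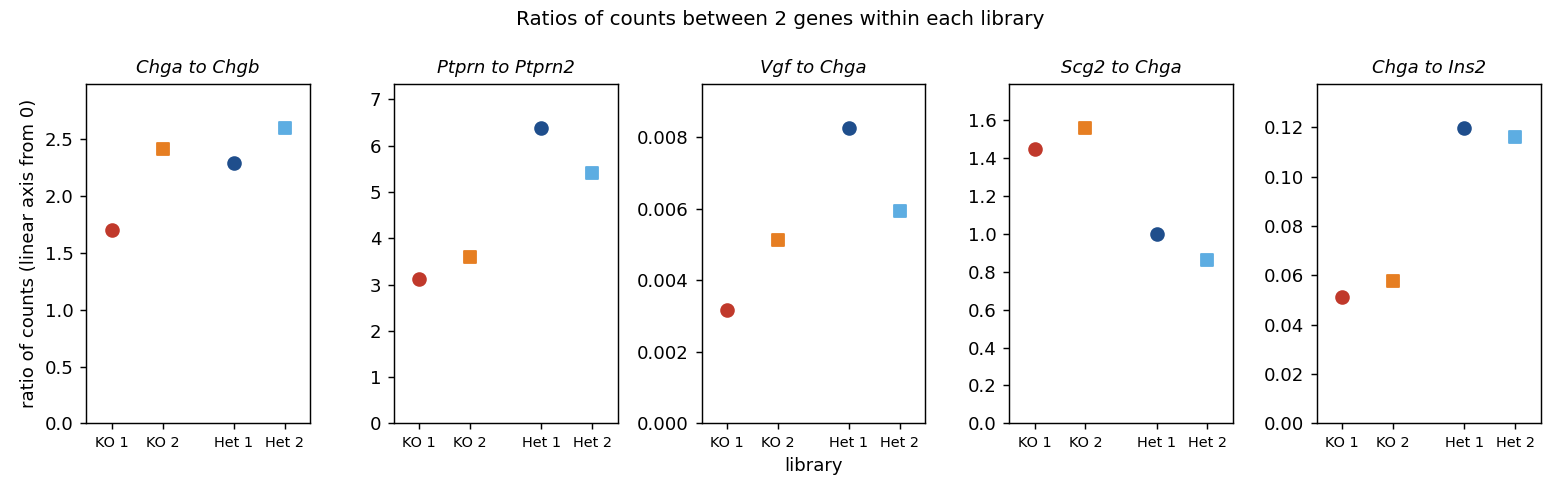
Ratio of the counts of 2 genes within each of the 4 libraries, 1 panel per pair, on linear axes from 0. The labels do not overlap for Ptprn to Ptprn2, Vgf to Chga, Scg2 to Chga and Chga to Ins2, and they overlap for Chga to Chgb.

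Per kilobase of joined exons (GENCODE release M21), Scg2 and Chga led in every library. On that scale Scg2 had levels of 5709.9 and 6043 CPM per kilobase under the KO label and 7199 and 7451 under the Het label, and Chga 3608 and 3542 against 6587 and 7884. Scg2 and Chga were thus apart under the KO label and not beyond their spread under the Het label, where the means were 7325 ± 178 and 7236 ± 918 (SD, n = 2). Chgb followed with means of 1803 ± 466 and 2973 ± 111 CPM per kilobase under the KO and Het labels. Resp18 (807 ± 113) and Scg3 (611 ± 17.9) came next under the KO label, and Scg3 (875 ± 24.4) and Resp18 (682 ± 134) under the Het label, so this neighbouring pair stood in the other order. Below them, Scgn (270.4 ± 56.2) and Nucb2 (191 ± 54.7) were not apart beyond their spread under the KO label, whereas Nucb2 (314 ± 13.5) led Scgn (173 ± 15.9) under the Het label. Ptprn had 144 ± 11.8 and 211 ± 14.9, Ptprn2 21.3 ± 3.81 and 17.7 ± 0.811, and Vgf 13.7 ± 4.36 and 46.9 ± 5.00. The order depends on the length used. With the median transcript length in place of joined exons, Chga led Scg2 under both labels (means of 13937 against 6117 and 28205 against 7625). Scg3 then stood above Resp18 under both (2913 against 1458 under the KO label and 4173 against 1233 under the Het label) and above Chgb (1803 and 2973). Scgn (931 ± 194) then led Nucb2 (396 ± 114) under the KO label, and under the Het label the libraries of Nucb2 (651 ± 28.0) and Scgn (596 ± 54.8) overlapped.

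The genes whose profiles over the 4 libraries came nearest to that of Chga, by Euclidean distance between centred log2 CPM among 8892 genes at a mean of 10 CPM or more, were Mns1 (distance 0.0283), Slc7a14 (0.0515) and Rad54l (0.120). Those nearest to Vgf were Dlgap5 (0.0980), Brca1 (0.231) and Car10 (0.246). Each profile has 4 points only, and these distances are a description.

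Counts called in the lists below stand beside shares of all genes tested. These were 1.34% lower and 1.20% higher in edgeR, 3.82% and 4.23% in DESeq2 and 1.49% and 1.12% in limma-voom. At an unadjusted p under 0.05 in edgeR they were 7.75% and 9.12%. Of 8 tested genes of hormone processing, Pcsk1 fell and 7 did not pass, with a median log2 fold change of -0.438. Pcsk1, the prohormone convertase that starts the cutting of proinsulin and of granins, went from 816 and 912 CPM under the Het label to 428 and 532 CPM under the KO label (-0.85, SE 0.16, edgeR adjusted p = 0.0449). Its call was lost with library sizes as the only scaling (adjusted p = 0.0544) and without Het replicate 1 (0.0889) or Het replicate 2 (0.228). Of 9 genes of the granule membrane and its transport, Slc30a8, the zinc transporter of the insulin granule, fell from 597 and 603 CPM to 299 and 336 CPM (-0.92, SE 0.14, edgeR adjusted p = 0.0230), and 8 did not pass. That call too was lost without Het replicate 1 (adjusted p = 0.0773) and without Het replicate 2 (0.127). DESeq2 called 3 lower and 0 higher of the processing genes and 3 lower and 1 higher of the membrane genes. With limma-voom it was 2 lower and 0 higher and 1 lower and 1 higher. Both tools, and not edgeR, called Ero1lb lower and Tmem27 higher, named for these calls after their values were seen. Ero1lb was at 776 and 1577 CPM under the KO label against 2861 and 3280 CPM (-1.38, edgeR adjusted p = 0.0711). Tmem27 was at 1119 and 1134 CPM against 681 and 746 CPM (0.66, edgeR adjusted p = 0.0532).

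Among genes that build, move or release the granule, edgeR called 1, Rab3b. Of 22 genes of granule formation and maturation, 0 passed in edgeR's test, 0 in DESeq2 and 0 in limma-voom, with 1 higher and 0 lower at an unadjusted p under 0.05 and a median of -0.141. Vps54, a subunit of the tethering complex GARP, had the smallest p (log2 fold change 0.77, adjusted p = 0.283), followed by Arfip2 (-0.35, adjusted p = 0.302). Of 21 genes of granule transport and priming, Rab3b, a small GTPase of secretory vesicles, rose from 24.5 and 29.8 CPM to 102 and 76.1 CPM (1.72, SE 0.21, edgeR adjusted p = 0.0150), and 20 did not pass. DESeq2 and limma-voom each called 1 higher and 1 lower in this list. The lower one was Sytl4 (granuphilin, which docks insulin granules at the plasma membrane), named for these calls after its values were seen, at 140.2 and 242 CPM against 394 and 405 CPM (-1.06, SE 0.25, edgeR adjusted p = 0.0845, DESeq2 adjusted p = 0.000542, limma-voom adjusted p = 0.0484). Without Het replicate 2 the Rab3b change was 1.85 with an adjusted p of 0.0633.

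None of 3 further granin relatives passed in edgeR's test (1 lower in DESeq2, 0 in limma-voom, 2 lower at an unadjusted p under 0.05). Pcsk1n, the gene of proSAAS, an inhibitor of that convertase, was at 347 and 313 CPM against 425 and 572 CPM (-0.59, adjusted p = 0.152), and Gnas, whose locus also encodes the granin-like NESP55, was at -0.33 (adjusted p = 0.288). The third, Scg5 (secretogranin V, the chaperone 7B2 of the convertase PCSK2), lay the other way with overlapping groups, at 784 and 569.7 CPM against 519 and 624 CPM (0.24, adjusted p = 0.589). Of the paralogs Nucb1 (-0.14, adjusted p = 0.741) and Calb1 (0.77, adjusted p = 0.258), 0 passed in edgeR, DESeq2 or limma-voom, with 1 higher at an unadjusted p under 0.05. Among 5 tested cargo hormones 0 passed in edgeR's test or limma-voom, DESeq2 called 1 higher, and 1 was higher and 1 lower at an unadjusted p under 0.05. Ins1 had a log2 fold change of -0.38 (edgeR adjusted p = 0.254) and Pyy of 0.91 (edgeR adjusted p = 0.144). That of Pyy was 1.24 without KO replicate 1 and 0.44 without KO replicate 2.

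Of 14 regulators of granin transcription, Egr1, an immediate early zinc finger factor, rose from 101 and 69.1 CPM to 362 and 187 CPM (1.69, SE 0.33, edgeR adjusted p = 0.0488), and 13 did not pass, with a median of 0.0422. Without Het replicate 2 it had a log2 fold change of 1.43 (adjusted p = 0.215). Among the 13, Rest, the repressor that keeps granin genes silent outside endocrine and nerve cells, was at 0.700 and 2.03 CPM against 1.70 and 0.877 CPM, and Creb1 at 25.4 and 35.3 CPM against 33.3 and 31.3 CPM.

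**Figure D5:**
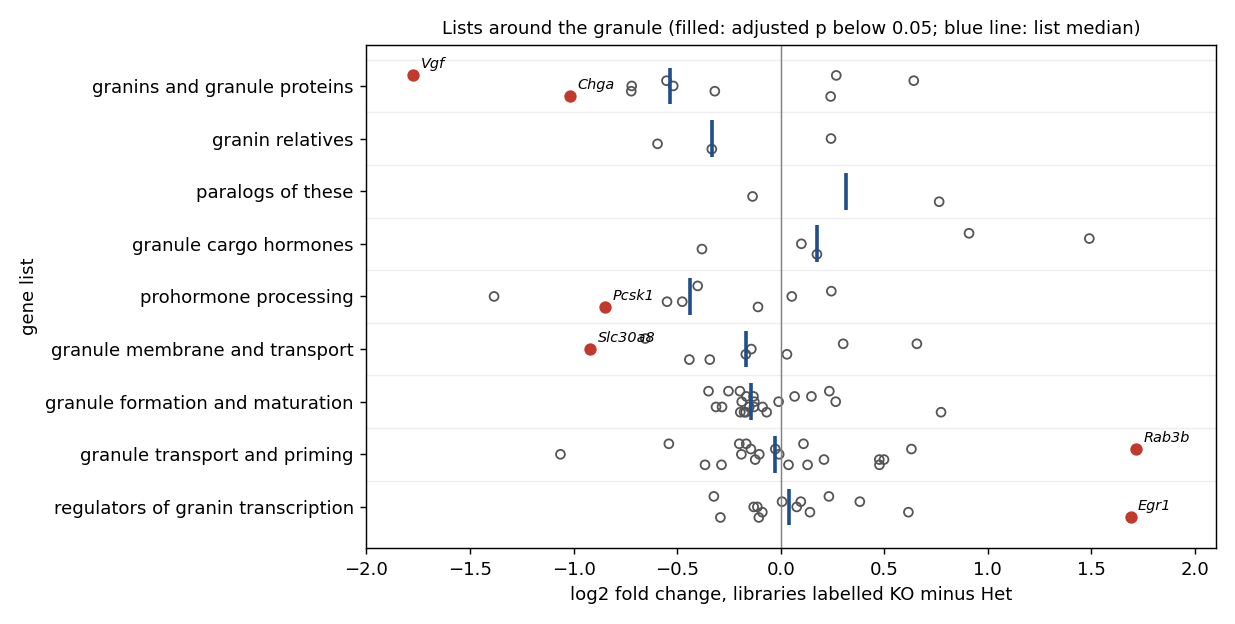
Log2 fold change of each tested gene in 9 lists around the granule, with filled red points where the adjusted p is below 0.05 and a blue line at each list's median. Vgf, Chga, Pcsk1 and Slc30a8 are the filled points below 0 and Rab3b and Egr1 those above it.

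Markers of other cells differed in the same libraries. For every marker list, the shares of all genes tested were 1.34% lower and 1.20% higher in edgeR and 3.82% and 4.23% in DESeq2. At an unadjusted p under 0.05 in edgeR they were 7.75% and 9.12%. Other islet cells also make granins: α markers (Gcg and others, 8 tested, 1 higher and 1 lower) summed to 3188 and 4785 CPM under the KO label against 3154 and 3801 CPM, δ markers (5 tested, 0 passed) to 616 and 1523 CPM against 1026 and 1115 CPM, and PP and ε markers (2 tested, 0 passed) to 2323 and 4621 CPM against 1601 and 1277 CPM. KO replicate 2 was the highest library in each of these sums. Enterochromaffin and other enteroendocrine markers were near 0, at 3.28 to 6.96 CPM in sum. Of the 2 tested, 0 passed in edgeR's test, and DESeq2 called 1 lower, as did an unadjusted p under 0.05: Cck, at 4 and 8 counts against 86 and 131 (log2 fold change -4.03, edgeR adjusted p = 0.0575).

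Acinar markers (12 tested, 0 passed) summed to 245 and 107 CPM under the KO label against 77.1 and 25.1 CPM, endothelial markers (5 tested, 0 passed) to 41.2 and 22.4 CPM against 15.1 and 11.6 CPM, and stromal markers (8 tested, 4 higher) to 154 and 411 CPM against 65.7 and 24.6 CPM. Duct markers (7 tested, 0 passed) summed to 762 and 702 CPM against 915 and 1014 CPM, with 3 negative and 4 positive log2 fold changes. Krt7 held the largest part of this sum, at 368 and 397 CPM against 567 and 663 CPM. Sox9 lay the other way, at 6.42 and 5.99 CPM against 1.21 and 2.48 CPM. Immune markers (8 tested, 0 passed) summed to 304 and 1015 CPM against 329 and 390.4 CPM. Those of neurons and Schwann cells (5 tested, 1 higher) summed to 116 and 109 CPM against 95.7 and 81.2 CPM. Where edgeR called 0, an unadjusted p under 0.05 was reached by 0 δ, 2 PP and ε, 5 acinar, 3 endothelial and 2 immune markers, all higher, and by 2 higher and 1 lower duct markers, and DESeq2 called 0, 2, 2, 2, 1 and 2 markers of these lists. Among these lists Amy2a5, Adgre1 and Dbh, of the acinar, immune and neuron lists, were at 0 in the 4 libraries or not in the table. Genes of cycling cells (12 of 15 lower, median -2.44) summed to 88.9 and 188 CPM under the KO label against 689 and 868 CPM. Of 17 genes of dissociation stress and immediate early response, 5 rose and 12 did not pass (median 1.06).

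With the marker genes of other cells taken out of the table, 2 of the 10 granule genes were lower (1.41% of all genes) and 0 higher (1.29%). That fit left out only the rows of these markers, and all other RNA of those cells stayed in the libraries. It therefore cannot show the part of other cells in the granin differences, which was not tested.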

How the data were processed

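RNA was measured in 4 libraries of sorted mouse β-cells, 2 labelled Bmal1KO and 2 labelled heterozygous. STAR, edgeR and mm10 are named in the submitters' processing notes, without versions or roles. All main tests used the table of unnormalized read counts, 1 row per gene symbol, that the authors deposited. They also deposited a scaled table, treated as a signal, equal to the counts times 1 constant per library: 100% of its values came out as whole reads at a tolerance of 0.01, and edgeR on those reads called 372 genes, the same number as on the counts. Which tool counted the reads, with which annotation and strand setting, is not stated in the labels.

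The filter was filterByExpr (at least 10 counts in enough libraries and 15 in all), the scaling TMM and the test that of edgeR 4.0.16 in R 4.3.3 (quasi-likelihood, 2-sided, group only, Benjamini-Hochberg at 0.05). Positive log2 fold changes are higher under the KO label. CPM are TMM-scaled, and 3 counts equal 0.0774 to 0.0936 CPM. No deposited column of sample values was left unmapped. Alternatives used limma 3.58.1, DESeq2 1.42.0, other scalings and filters, a replicate block and leaving out each library; the recovered reads and the fit without markers of other cells were chosen after seeing the data. The 10 genes, the lists and the tests were chosen with earlier results of these data known.

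The text names all 10 genes, Arntl, and of each list the genes past the threshold (up to 5), otherwise the 2 of smallest p, and for each of the 10 genes past the threshold the 3 genes of most similar profile. Other genes were chosen outside that rule. They were named for their role or as marker examples (Ins2, Rest, Creb1, Xist, Ddx3y, Gcg, Krt7, Sox9), for calls by other tools (Sytl4, Ero1lb, Tmem27) or to complete a list (Scg5). Gene positions and lengths are from GENCODE M21 (GRCm38), promoters from RefSeq (GRCm38.p6). The procedure was tested on 5 simulated sets of 14649 genes, 200 of them changed: it called 32.8% of genes changed 2-fold, 70.8% of genes changed 4-fold and 0.0821% of unchanged genes. Replicates differed by more than sampling noise (chi-square per gene 66.7 under the KO label and 44.8 under the Het label).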

Additional observations from a re-analysis of the deposited data

How the results depend on the processing

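Directions of the 10 granule genes were the same under every alternative run, 16 fits or, for the 4 most abundant (Chga, Chgb, Scg2 and Scg3), the 15 that tested them; calls were not. Against 2 lower and 0 higher, DESeq2 called 6 lower and 1 higher (560 lower and 619 higher over all 14649 genes). No filter gave 6 lower (378 and 430 of 17948), and limma-trend on the deposited values 1 lower (258 and 232 of 14649). Without the 20 most abundant genes, Chga, Chgb, Scg2 and Scg3 were not tested, and 1 of the 6 left was lower (193 and 175 of 14629). At a mean of at least 5 CPM, 266 of 10681 genes were higher. Leaving out 1 library gave 0 to 6 granule genes lower and 0 to 1 higher, and 8 to 422 lower and 17 to 404 higher over all genes. The calls of Chga and Vgf were lost without Het replicate 2, in a fit that left 1 library under that label. That of Chga was also lost by limma-trend on all libraries. The cause of these differences was not tested.

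With the replicate number of the titles as a replicate block, 3 granule genes were lower (Chgb added, adjusted p = 0.0482) and 313 genes higher and 278 lower in all. The labels do not say that equal numbers mark a shared origin. Deviations of KO replicate 1 and Het replicate 1 from their group means had a correlation of -0.0189 across genes. With 2 libraries per group, this value cannot decide whether equal numbers share an origin. Of 206 pairs of another named gene (13 genes) and an alternative, 8 lost a call, 4 gained one and 0 reversed; the losses were in 5 genes and 3 alternatives (library sizes only, and without Het replicate 1 or 2), the gains in 2 genes and 3 alternatives. Depth does not limit these genes, whose lowest count in a library was 1037, for Vgf.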
